A study of Homo sapiens with 16 samples.

Results

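Cholesterol is built from acetyl-CoA through mevalonate, isoprenoid, squalene and sterol intermediates, and each step has its own enzyme in the cytosol or the endoplasmic reticulum. Most of these enzyme genes are switched on together by the transcription factor SREBP-2 when membrane sterol runs low, and INSIG1 is the protein that holds SREBP and its escort SCAP in the endoplasmic reticulum when sterol is plentiful. In the brain microglia take up, make and export sterol, and isoprenoids from the same pathway anchor small GTPases to membranes. The genes described here are 9 rows, matched by symbol, of the 60669 genes in each deposited table. They are HMGCS1, MVD, IDI1, FDPS, FDFT1, SQLE, LSS and DHCR7, which encode enzymes, and INSIG1, which is a regulator and not an enzyme. All 9 passed the filter on low values.

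RNA came from HMC3, an established human microglial cell line, either wild type or labelled METTL3 KO. METTL3 is the catalytic subunit of the enzyme that writes N6-methyladenosine (m6A) on RNA. From 100 ng of RNA, 5 wild-type and 5 knockout-labelled libraries were made with Smart-seq2, which amplifies polyadenylated RNA, and 3 and 3 after removal of ribosomal RNA with a directional kit. The labels give no treatment, guide, clone or passage, and do not say whether replicates were separate cultures, so p-values measure the spread between these libraries, which may be technical.

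The rRNA-depleted libraries were available as TPM, a level scaled by gene length and by library total, with 266157 to 1267171 reads recovered per library. The reads of knockout-labelled libraries 1 and 2 differed by no more than sampling noise (chi-square test over 10117 genes, p = 0.0687), so they were averaged and counted as 1 sample, so that 3 wild-type samples were set against 2. METTL3 mRNA was measured at 31.2, 31.6 and 25.4 TPM in wild-type libraries and 39.2, 39.96 and 42.7 TPM under the knockout label, so its level does not check that label. Nor was METTL3 lower in poly(A) RNA, at 0.09 on the log2 scale (SE 0.11, adjusted p 0.654) in the authors' deposited table. Of 10 microglial markers 7, among them AIF1, CX3CR1, P2RY12, TMEM119 and SPI1, were listed at 0 in all 6 libraries, and the 10 together reached at most 6.47 TPM. The 5 mesenchymal markers, none listed at 0 throughout, summed to between 10818 and 13273 TPM in the wild type and between 3388 and 3554 TPM under the knockout label (COL1A1, COL1A2 and PDGFRB lower, VIM and THY1 higher, without overlap), while the hepatocyte markers ALB and APOA1 were at 0. limma called 35.3% of all 14789 genes at an adjusted p under 0.05, and 64.8% of those calls were higher under the knockout label (48.6% with median ratio scaling). The median log2 change of all genes was 0.41, or 0.11 with that scaling, so changes of most members are also given relative to 0.41. Log2 changes fell with transcript GC content (Spearman -0.37 across 14669 genes, which share libraries). The part of the mesenchymal markers, depth and GC content in the results below was not tested, except where a value with the GC trend removed is given.

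The poly(A) libraries were available only through the authors' deposited table of 1 comparison, with no value for a single library. That table does not name its numerator. A positive value was read as higher in the knockout label, because 91.5% of the 177 genes called in both library types with a log2 change of at least 1 in each then moved the same way. Over all 1327 genes called in both, whatever their size, 67.3% did. With wild type as the numerator, every poly(A) direction below would be opposite.

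Which members differed between the labels was asked first in the rRNA-depleted libraries. HMGCS1 and DHCR7, at the start and the end of the pathway, rose 2.55-fold and 2.73-fold under the knockout label. MVD, FDPS and LSS fell, with wild-type means 2.72-fold, 2.15-fold and 2.90-fold above those under the knockout label. IDI1, FDFT1, SQLE and INSIG1 did not pass the limma test. Thus 2 members of 9 were called higher and 3 lower, where 22.9% and 12.4% of all tested genes were. The libraries of the labels did not overlap for 7 of the 9 members, and for 58.4% of all tested genes. An exact permutation test of 3 against 2 samples cannot give a two-sided p below 0.2, so single genes rest on limma's adjusted p over all genes. In bulk RNA, fewer cells expressing a gene and less RNA per cell cannot be told apart.

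MVD and FDPS were the members called lower in both library types. LSS was also below 0 in both, but was not called in poly(A) RNA. The sequences before the start sites of MVD and FDPS are shown with that of DHCR7, which was called in both types but in opposite directions. RefSeq promoter windows (GRCh38.p14) were matched for HMGCS1, MVD, IDI1, FDPS, LSS, DHCR7 and INSIG1. The 250 bases before the start were searched on both strands for CCAAT, which reads as ATTGG on the opposite strand, the box bound by NF-Y, a common partner of SREBP. Capitals mark that box. MVD lies on the minus strand (chr16:88663092-88663341), FDPS on the plus strand (chr1:155308616-155308865) and DHCR7 on the minus strand (chr11:71448394-71448643, the first of 2 windows listed).
MVD: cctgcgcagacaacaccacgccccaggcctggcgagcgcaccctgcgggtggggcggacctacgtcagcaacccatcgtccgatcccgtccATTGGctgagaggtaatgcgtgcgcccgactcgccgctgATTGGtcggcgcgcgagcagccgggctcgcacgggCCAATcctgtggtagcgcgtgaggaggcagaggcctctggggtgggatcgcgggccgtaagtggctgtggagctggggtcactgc
FDPS: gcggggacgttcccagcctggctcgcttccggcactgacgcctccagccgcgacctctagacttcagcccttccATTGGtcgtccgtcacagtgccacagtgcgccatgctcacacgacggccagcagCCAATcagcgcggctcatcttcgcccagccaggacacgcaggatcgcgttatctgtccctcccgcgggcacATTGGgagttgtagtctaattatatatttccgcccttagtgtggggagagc
DHCR7: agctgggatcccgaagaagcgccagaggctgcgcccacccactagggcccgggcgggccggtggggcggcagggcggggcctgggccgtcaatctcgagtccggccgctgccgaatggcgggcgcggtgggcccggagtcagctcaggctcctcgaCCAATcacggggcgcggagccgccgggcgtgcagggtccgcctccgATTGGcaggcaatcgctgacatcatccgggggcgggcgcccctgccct

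The windows of MVD and FDPS each held 3 CCAAT boxes, and 2.93% of all 35116 windows held 3 or more. Counted in bases from the start, those of MVD lie at -159, -120 and -85 and those of FDPS at -176, -122 and -51. DHCR7 held 2, at -94 and -48, HMGCS1 held 2 in 1 of its windows, and LSS and INSIG1 held 1 each. IDI1, which was not called in either library type, also had 3 matches in 1 of its windows, at -132, -129 and -87. Those at -132 and -129, read on opposite strands, overlap and so are not separate sites. Overlapping matches were counted as separate boxes. Whether 3 separate boxes are particular to the members called lower in both types was not tested. At least 1 box was found for 7 of the 7 members and in 32% of all windows, although HMGCS1, IDI1 and DHCR7 have more than 1 window and so more chances. The letters TCACNCCAC, close to the sterol response element, are in 0.883% of windows and in none of the members' windows, which says only that those letters are not there. The box was thus present in members that rose and in members that fell.

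The first steps make mevalonate and turn it into the 5-carbon isoprenoid unit. HMGCS1 (ENSG00000112972; chromosome 5, 43289395 to 43313512, minus strand, GRCh38, GENCODE 29) encodes HMG-CoA synthase, which condenses acetyl-CoA with acetoacetyl-CoA. In library order, here and below, HMGCS1 had 15.1, 13.2 and 21.6 TPM in the wild type and 34.2, 39.0 and 48.1 TPM under the knockout label. Every knockout-labelled library was above every wild-type library. These values rest on 6 to 17 reads per wild-type library and 35 to 67 per knockout-labelled library, and the 6 reads of wild-type library 2 have an exact 95% Poisson interval of 4.85 to 28.7 TPM, counting error only. Averages were 16.6 ± 4.43 TPM (SD, n = 3) for wild type against 42.4 ± 8.09 TPM (SD, n = 2), and on the log2(TPM + 1) scale HMGCS1 changed by 1.31 (SE 0.29, adjusted p 0.0227 in limma), or 0.90 relative to all genes. The limma adjusted p rose to 0.0562 with median ratio scaling, to 0.0983 with the GC trend removed (log2 change 0.77), to 0.0573 without wild-type library 1 and to 0.171 without knockout-labelled library 3. In poly(A) RNA HMGCS1 stood at -0.57 on the log2 scale (SE 0.27, adjusted p 0.14) in the authors' deposited table, on a mean of 26.1 normalized counts.

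MVD (ENSG00000167508; chromosome 16, 88651935 to 88663161, minus strand) encodes mevalonate diphosphate decarboxylase, which makes isopentenyl diphosphate. MVD had 93.1, 83.4 and 90.1 TPM in the wild type and at 24.2, 35.4 and 35.6 TPM under the knockout label. The groups were far apart, on 26 to 71 reads per library. Averages were 88.9 ± 4.98 TPM (SD, n = 3) for wild type against 32.7 ± 4.11 TPM (SD, n = 2), which is -1.42 as a log2 change (SE 0.15, adjusted p 0.00304 in limma), or -1.83 relative to all genes. With the GC trend removed the log2 change was -0.71 and still passed (limma adjusted p 0.0239). For poly(A) RNA MVD had the lowest log2 value of the 9 members in the authors' deposited table, -1.02 (SE 0.18, adjusted p 1.03e-06).

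IDI1 and FDPS handle the isoprenoids. IDI1 (ENSG00000067064; chromosome 10, 1039152 to 1049170, minus strand) encodes the isomerase of isopentenyl diphosphate, and had 19.7, 2.88 and 20.02 TPM in the wild type and 37.4, 26.7 and 21.6 TPM under the knockout label. Wild-type library 2 stood apart from the other two, on 1 read, whose exact 95% Poisson interval runs from 0.073 to 16.1 TPM. The log2 change was 1.20 (SE 0.84, adjusted p 0.315 in limma) and 0.39 without that library, so that library decides its size. Reads of IDI1 are the smallest whole numbers with the ratios of its TPM, since its GENCODE 29 length did not give whole reads. In poly(A) RNA the value of IDI1 was -0.22 (SE 0.09, adjusted p 0.0697) in the authors' deposited table.

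FDPS (ENSG00000160752; chromosome 1, 155308748 to 155320666, plus strand) encodes farnesyl diphosphate synthase, whose product feeds both sterols and the lipid anchors of proteins. FDPS had the highest mean of the members in both labels, with 248, 223 and 285 TPM in the wild type and 114.5, 122 and 116 TPM under the knockout label. All 3 knockout-labelled libraries lay close together and below every wild-type library, on 67 to 177 reads. Averages were 252 ± 31.4 TPM (SD, n = 3) for wild type against 117 ± 1.42 TPM (SD, n = 2), which is -1.09 as a log2 change (SE 0.13, adjusted p 0.0045 in limma), or -1.50 relative to all genes. With the GC trend removed it was -0.59 (limma adjusted p 0.0323), and without knockout-labelled library 3, which leaves 1 sample under that label, the limma adjusted p was 0.0632. In poly(A) RNA FDPS was again lower, at -0.68 (SE 0.11, adjusted p 6.05e-08) in the authors' deposited table. Of 8 FDPS pseudogenes in the TPM table, FDPSP5 alone was above 0, at up to 9.79 TPM.

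FDFT1, SQLE and LSS build the sterol ring. FDFT1 (ENSG00000079459; chromosome 8, 11795573 to 11839309, plus strand) encodes squalene synthase, the first enzyme committed to sterols. FDFT1 had 73.5, 45.8 and 69.1 TPM in the wild type and 109, 115 and 93.1 TPM under the knockout label, without overlap. The log2 change of 0.72 (SE 0.24) did not pass (limma adjusted p 0.0735), and it was 0.31 relative to all genes. FDFT1 passed with the 6 libraries as separate samples (limma adjusted p 0.02) and with limma-voom on reads (adjusted p 0.0284, log2 change 0.47). The authors' deposited table gave 0.02 (SE 0.06; adjusted p 0.869) at a mean of 813 normalized counts, the deepest of the 9 members there.

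SQLE (ENSG00000104549; chromosome 8, 124998497 to 125022283, plus strand) encodes squalene epoxidase, a rate-limiting step. SQLE had 47.7, 31.2 and 25.03 TPM in the wild type and 60.7, 54.7 and 42.0 TPM under the knockout label, so wild-type library 1 overlapped the other label. The log2 change was 0.54 (SE 0.32, adjusted p 0.243 in limma), or 0.13 relative to all genes. SQLE was lower in poly(A) RNA, at -0.43 (SE 0.09, adjusted p 1.84e-05) in the authors' deposited table.

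LSS (ENSG00000160285; chromosome 21, 46188141 to 46228824, minus strand) encodes lanosterol synthase, which closes the sterol rings. LSS had 155, 150.1 and 158 TPM in the wild type and 60.7, 48.8 and 51.7 TPM under the knockout label, on 58 to 191 reads. Both groups were tight and far apart. Averages were 154 ± 3.94 TPM (SD, n = 3) for wild type against 53.2 ± 2.12 TPM (SD, n = 2), which is -1.52 as a log2 change (SE 0.11, adjusted p 0.0014 in limma), or -1.93 relative to all genes. LSS did not pass in poly(A) RNA, with -0.25 (SE 0.15, adjusted p 0.282) in the authors' deposited table. Whether the change of LSS differs between the library types was not tested.

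DHCR7 (ENSG00000172893; chromosome 11, 71428193 to 71452868, minus strand) encodes 7-dehydrocholesterol reductase, the enzyme of the last step to cholesterol. DHCR7 had 40.9, 34.8 and 27.3 TPM in the wild type and 95.1, 90.9 and 94.7 TPM under the knockout label. The knockout-labelled libraries sat close together and above every wild-type library, on 14 to 24 reads per wild-type library and 61 to 138 per knockout-labelled library. Averages were 34.3 ± 6.77 TPM (SD, n = 3) for wild type against 93.8 ± 1.22 TPM (SD, n = 2), which is 1.44 as a log2 change (SE 0.21, adjusted p 0.00644 in limma), or 1.03 relative to all genes. Without knockout-labelled library 3 DHCR7 was at 1.43 and did not pass (adjusted p 0.0831 in limma). DHCR7 was lower in poly(A) RNA, at -0.37 (SE 0.10, adjusted p 0.00293) in the authors' deposited table. A call in both types with opposite directions was made for 3.47% of the 12498 genes tested in both, and lower in both, as for MVD and FDPS, for 1.96%. The difference between the types was not itself tested.

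INSIG1 (ENSG00000186480; chromosome 7, 155297776 to 155310235, plus strand) is itself a target of SREBP. INSIG1 had 66.0, 62.4 and 72.2 TPM in the wild type and 93.7, 93.8 and 69.0 TPM under the knockout label, where library 3 fell among the wild-type values. The log2 change was 0.27 (SE 0.18, adjusted p 0.295 in limma), -0.15 relative to all genes and -0.08 with median ratio scaling, so no direction is given. The authors' deposited table gave INSIG1 -0.01 (SE 0.08; adjusted p 0.947) at a mean of 300.0 normalized counts.

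**Figure D1:**
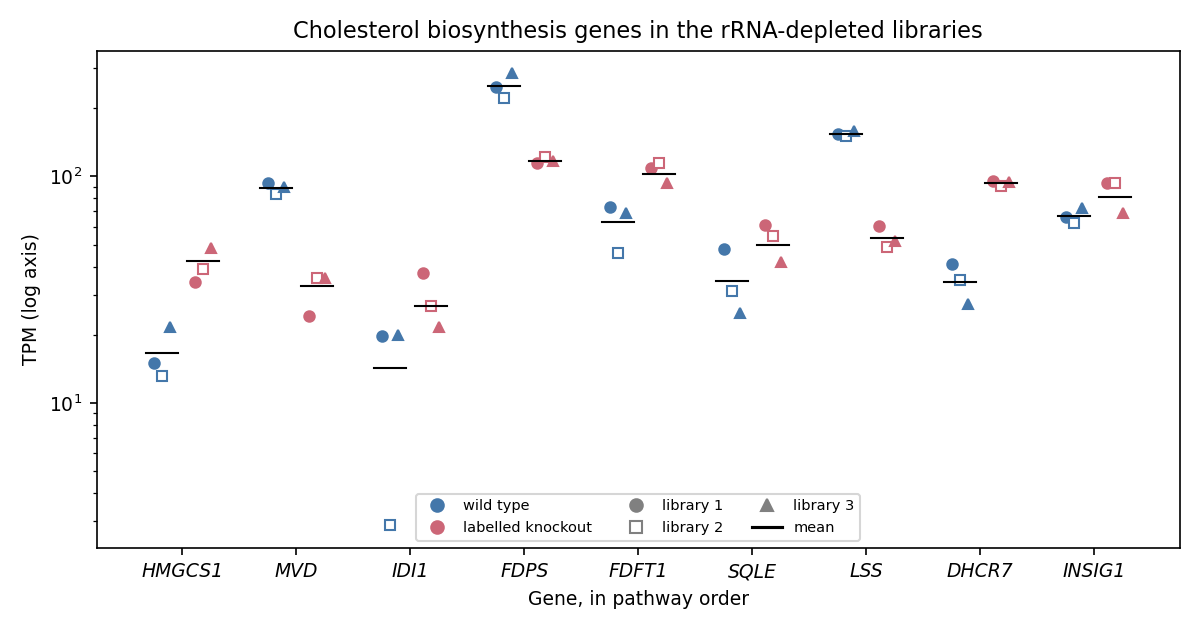
TPM (log axis) of the 9 genes in each rRNA-depleted library, wild type in blue and labelled knockout in red, with a marker shape for each library and a bar at the mean, knockout-labelled libraries 1 and 2 counted as 1 sample. MVD, FDPS and LSS are lower and HMGCS1 and DHCR7 higher in all 3 knockout-labelled libraries than in any wild-type library. FDFT1 and IDI1 are also higher in all 3, but did not pass the limma test. IDI1 in wild-type library 2 is the low point at 2.88 TPM.

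TPM is scaled by length, so levels were ordered across genes, but TPM is not corrected for GC content. GC content is 56.0% for FDPS, 58.3% for LSS and DHCR7, 63.7% for MVD, 40.2% for HMGCS1 and 41.1% for IDI1. The part of GC content in the order was not tested. In the wild type FDPS, LSS and MVD led and did not overlap each other or the rest, at means of 252, 154 and 88.9 TPM. INSIG1 overlapped FDFT1, FDFT1 overlapped SQLE and SQLE overlapped DHCR7 in their ranges, and HMGCS1 and IDI1 were last and overlapped each other. Under the knockout label the order was FDPS, FDFT1, DHCR7, INSIG1, LSS, SQLE, HMGCS1, MVD and IDI1, and the ranges of neighbours overlapped at every place but that between INSIG1 and LSS. The span between the highest and lowest mean narrowed from 252 and 14.2 TPM to 117 and 26.8 TPM. The order was another in poly(A) RNA, by mean normalized counts pooled over labels and not scaled by length. FDFT1 was highest there at 813, with IDI1 at 228.5, FDPS at 211, LSS at 112.5, MVD at 40.9 and HMGCS1 at 26.1.

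FDPS, LSS and MVD together summed to 495, 456 and 533 TPM in the wild type and to 199, 207 and 204 TPM under the knockout label. The other 6 members summed to 263, 190.3 and 235 TPM and to 430, 420 and 368 TPM. All 9 summed to 758, 646.5 and 768 TPM in the wild type and to 629, 626 and 572 TPM under the knockout label. The groups did not overlap in any of these sums, and the split was made after the values were seen, so no test is given.

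GC content was set beside the changes because all genes showed the trend. LSS and DHCR7 have transcripts of the same GC content, 58.3%, and moved in opposite directions, by -1.52 and 1.44, where genes of their GC bin had a median log2 change of -0.08. They stood at the 9.1 and 91.8 percentiles of that bin. MVD (63.7% GC) and FDPS (56.0% GC) differed from the medians of their bins by -1.01 and -1.07, at the 16.2 and 20.4 percentiles. HMGCS1 (40.2% GC) was 0.25 above its bin's median of 1.06, and IDI1 (41.1% GC) was 0.28 above its bin's median. After removal of the GC trend LSS was at -1.03 (limma adjusted p 0.00466) and DHCR7 at 1.93 (limma adjusted p 0.00388).

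**Figure D2:**
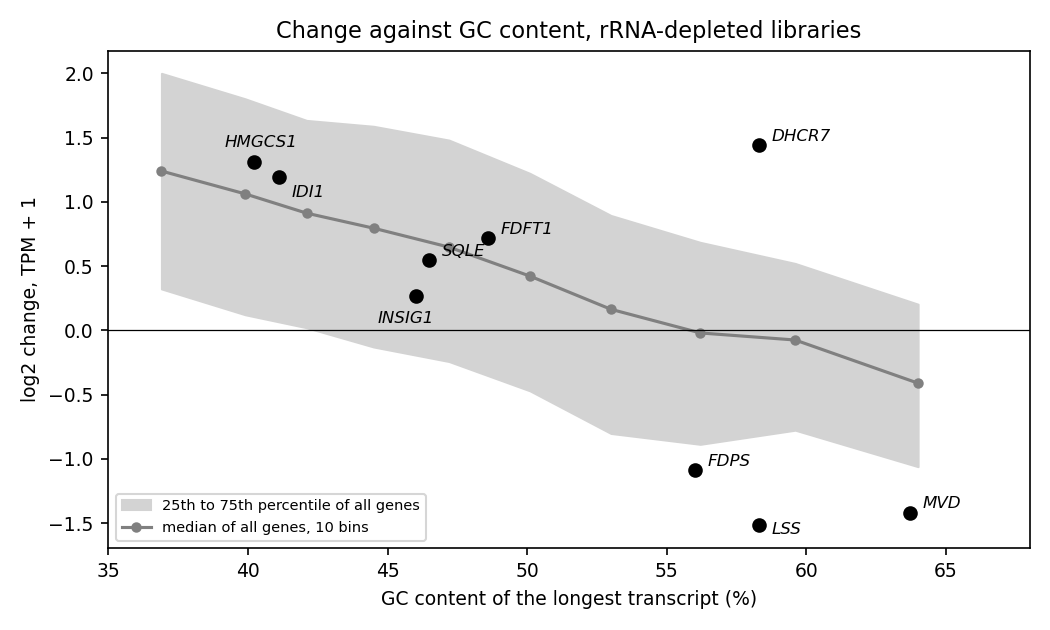
Log2 change under the knockout label (TPM + 1 scale) against the GC content of the longest transcript, for the 9 genes (black points) over the median and the 25th to 75th percentile of all genes in 10 GC bins (grey). DHCR7 lies above and LSS, FDPS and MVD below the grey band, and the other 5 lie within it.

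The poly(A) comparison asked the same of polyadenylated mRNA. MVD, FDPS, SQLE and DHCR7 were lower in the authors' deposited table past an adjusted p of 0.05 and none of the 9 was higher. Of all genes 19.9% were called in the authors' deposited table, 10.3% lower and 9.55% higher. The log2 fold change was below 0 for 8 of the 9 members in the authors' deposited table, FDFT1 being the exception. Their median in the authors' deposited table was -0.37, against 0.02 over all 14009 genes with an adjusted p. Of the 4 called members, MVD and FDPS alone were at -0.5 or lower in the authors' deposited table.

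The other genes of the pathway were taken from a list of 14, among them ACAT2, MVK, PMVK, IDI2 and sterol enzymes after LSS. Adjusted p-values existed for 13 of them in the authors' deposited table, of which 5 were lower, 0 higher and 8 not called, and all 13 log2 fold changes were below 0. With the members, 21 of 22 genes were below 0 and 9 were called lower in the authors' deposited table. Of all 14009 genes 6798 were below 0, and 10.3% were called lower and 9.55% higher. ACAT2, which makes acetoacetyl-CoA, had -0.70 (SE 0.08, adjusted p 3.32e-16) in the authors' deposited table, and was named after its values were seen. The authors' deposited table also had LBR (-0.63), EBP (-0.63) and NSDHL (-0.46) lower, the sterol C14 reductase and lamin receptor, the sterol isomerase and a C4 demethylase, with adjusted p-values of 4.04e-16, 6.86e-05 and 0.000436.

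In the rRNA-depleted libraries 13 of the 14 were tested, with 4 higher and 3 lower in limma, where 22.9% and 12.4% of all tested genes were. The 7 calls became 5 with median ratio scaling, 5 with the GC trend removed and 10 with limma-voom on reads. Among the higher were LBR (log2 change 1.18), MSMO1 (1.06) and NSDHL (2.17), with limma adjusted p-values of 0.0216, 0.0378 and 0.0081. NSDHL had 10.7, 20.7 and 21.0 TPM in the wild type, on 3, 4 and 7 reads, and 77.3, 76.8 and 80.9 TPM under the knockout label, on 25 to 56 reads. The 3 lower were EBP (-1.16; limma adjusted p 0.0042), PMVK (-2.18; limma adjusted p 0.00472) and CYP51A1 (-5.03; limma adjusted p 0.000872). EBP was the one gene of the 14 called lower in both library types, and LBR and NSDHL were called in opposite directions. The list's median log2 change was 0.35, or -0.06 relative to all genes.

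CYP51A1, lanosterol demethylase, had the largest change of the 22 pathway genes tested there. Its levels were 86.9, 78.7 and 104 TPM in the wild type, on 31 to 71 reads, and 3.29, 0.672 and 1.58 TPM under the knockout label, on 4, 1 and 1 reads, counted as for IDI1. The exact 95% Poisson interval of the 4 reads runs from 0.897 to 8.43 TPM, below the lowest wild-type library. The authors' deposited table gave CYP51A1 a mean of 5.39 normalized counts and a log2 value of -0.93 (SE 0.48, adjusted p 0.169). GENCODE 29 has another gene on the same strand that shares 2844 exonic bases with CYP51A1. That gene has no row in the deposited tables, and whether the annotation used for counting treated the overlap in another way is not given in the sources used here. PMVK, phosphomevalonate kinase, went from 116, 194 and 187 TPM to 39.3, 40.7 and 30.3 TPM, on 6 to 40 reads. CYP51A1 and PMVK were named after their values were seen.

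**Figure D3:**
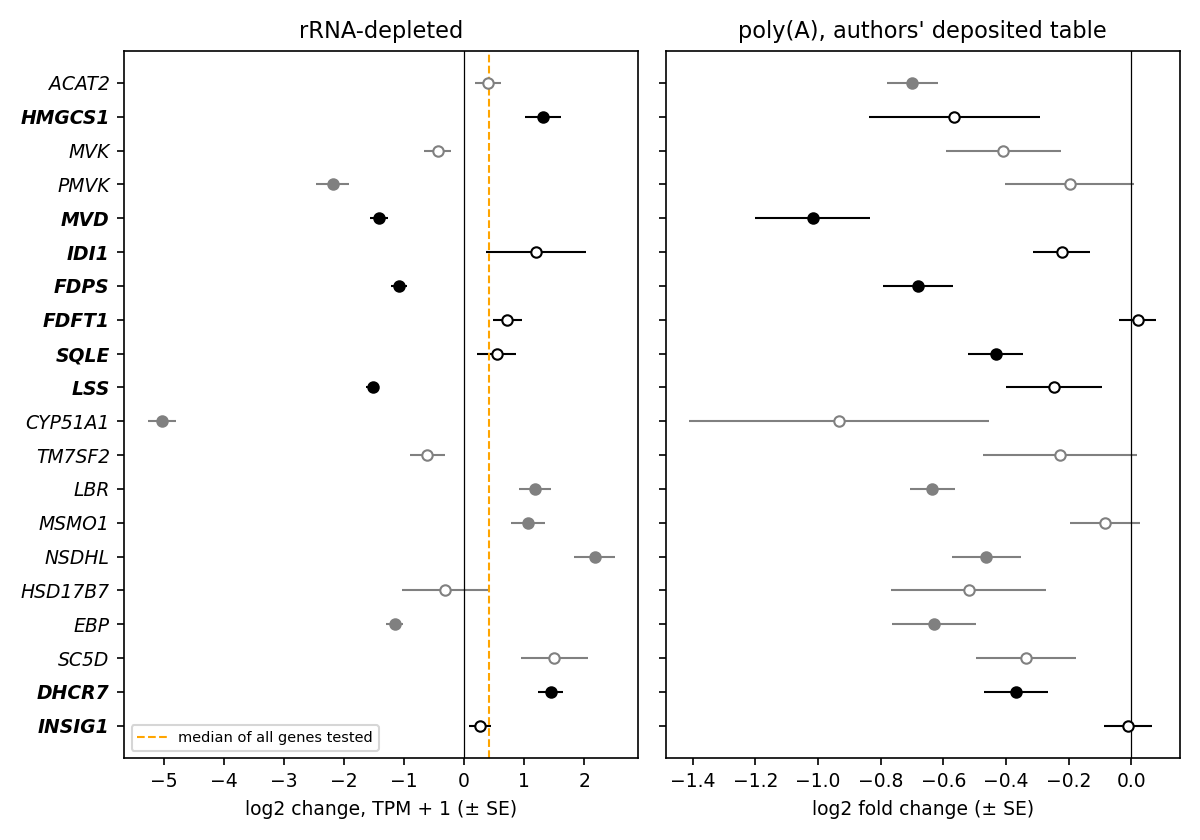
Log2 change under the knockout label, with its SE, for 20 pathway genes in the rRNA-depleted libraries (left, limma on the TPM + 1 scale) and in the authors' deposited table for poly(A) RNA (right), on axes of different scale. Members are in bold and black, other genes in grey, and filled points have an adjusted p under 0.05. On the right 19 of 20 points lie below 0, and on the left 9 of 20 do.

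Regulators of SREBP were described from a list of 12. At an adjusted p under 0.05 none was called in the authors' deposited table (1 at an unadjusted p under 0.05, MBTPS2), where 19.9% of all genes were. In the rRNA-depleted libraries 3 were higher and 1 lower in limma, where 22.9% and 12.4% of all tested genes were. MBTPS1, the site-1 protease that releases SREBP, had a log2 change of 1.48 (SE 0.20, adjusted p 0.00524 in limma), with 15.2, 16.2 and 15.2 TPM in the wild type and 43.9, 42.5 and 47.3 TPM under the knockout label. ERLIN1, a membrane protein of the endoplasmic reticulum, had 1.44 (SE 0.22, adjusted p 0.00766 in limma). SREBF1 was the one that fell, with -1.06 (SE 0.22, adjusted p 0.0172 in limma). SREBF2, which encodes SREBP-2, had 67.5, 65.7 and 80.8 TPM in the wild type and 59.4, 64.2 and 73.5 TPM under the knockout label, with overlap and a limma adjusted p of 0.749. SREBF2 and SREBF1 stood at -0.39 (SE 0.21, adjusted p 0.206) and -0.54 (SE 0.28, adjusted p 0.174) in the authors' deposited table.

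Genes that SREBP drives for fatty acids were taken from a list of 10. SCD (-0.64), FASN (-0.63) and FADS1 (-0.32) were lower in the authors' deposited table, with adjusted p-values of 2.33e-12, 0.049 and 0.000177, and 0 were higher. Of all 14009 poly(A) genes with an adjusted p, 10.3% were called lower and 9.55% higher. In limma 5 of the 10 were higher in the rRNA-depleted libraries, ACLY, ACACA, SCD, ELOVL5 and LPIN1, and 2 were lower, FASN and ACSS2. Of all tested genes 22.9% were higher and 12.4% lower there. FASN, fatty acid synthase, fell from 596, 546 and 639 TPM to 336, 312 and 383 TPM, a log2 change of -0.75 (SE 0.12, adjusted p 0.00989 in limma). SCD, the stearoyl-CoA desaturase, rose there from 139, 118 and 116 TPM to 220.0, 229.9 and 220.4 TPM, a log2 change of 0.84 (SE 0.12, adjusted p 0.00675 in limma). FASN was thus lower in both library types, and SCD was called in opposite directions, as DHCR7 was. Changes of single list genes, here and elsewhere, are given without subtracting the median log2 change of all genes, 0.41.

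**Figure D4:**
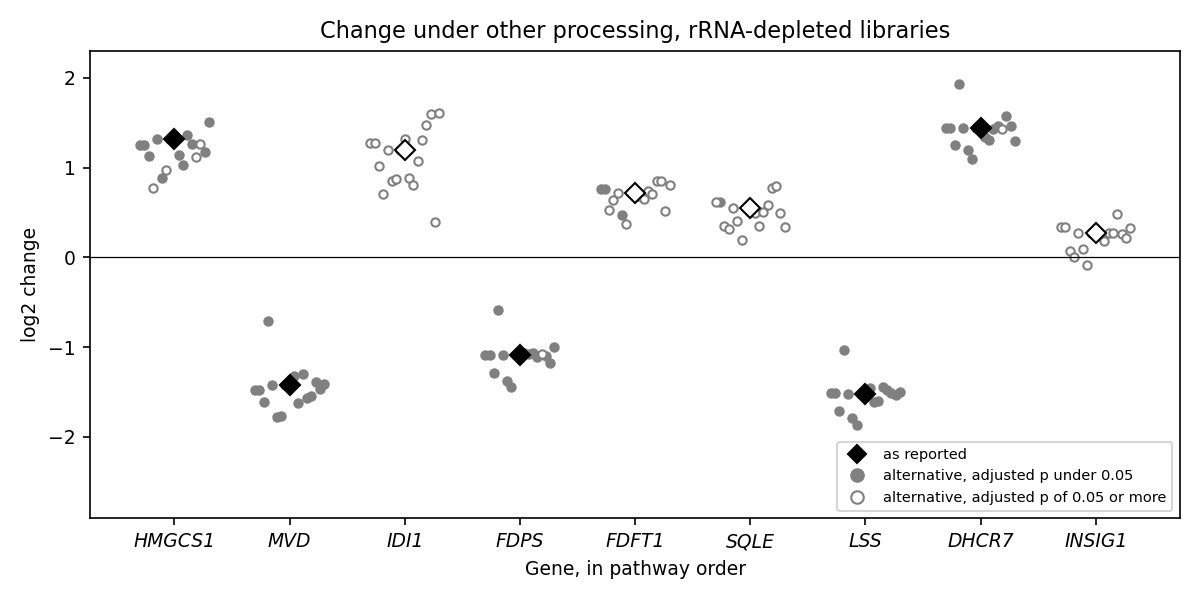
Log2 change of the 9 genes in the rRNA-depleted libraries as reported (black diamonds) and under 17 other ways of processing or leaving out a library (grey points). Filled symbols have a limma adjusted p under 0.05, and the sign changes in INSIG1 alone, with median ratio scaling.

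The reads of some members may be mixed with those of other genes, since the counting setting for strand is not given in the sources used here. Antisense genes share exonic bases with HMGCS1, IDI1, FDPS, FDFT1 and LSS in GENCODE 29. Those partners were listed at no more than 6.23 TPM in any library, apart from the partner of FDFT1, which had 26.0, 19.0 and 27.4 TPM in the wild type and 6.14, 2.51 and 0 TPM under the knockout label. No gene shares exonic bases with MVD, SQLE, DHCR7 or INSIG1 there.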

How the data were processed

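Per the submitters' processing notes, Trimmomatic, STAR, DESeq2 and hg38 were used, with roles and versions not given. The authors deposited TPM for the rRNA-depleted libraries. For poly(A) RNA the authors deposited 1 comparison with a mean normalized count (a signal pooled over libraries), log2 fold change and SE, Wald score, p-value and adjusted p-value. Adjusted p-values were used as deposited, in place of a test.

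Exon lengths, positions and GC content came from GENCODE 29 (93.8% of identifiers matched). Multiplying TPM by length and a factor per library gave whole reads for 90.9% of values above 0, to within 0.02. Intervals cover counting error only. limma 3.58.1 (R 4.3.3, eBayes with trend) was fitted to log2(TPM + 1), which understates changes of low genes, over genes reaching 1 TPM in 3 or more libraries. Benjamini-Hochberg adjustment over all genes used 0.05. The step was tested on simulated data without a GC trend or a shift of all genes, so that test does not cover either, and its outcome is not reported here. scipy 1.17.1 and matplotlib 3.10.9 were also used.

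Members and 6 lists were chosen with earlier results of these data known. Named genes are members, METTL3, list genes called in both library types, or, in lists with none, the 2 with the largest changes among genes called in either type, and others said to be chosen after seeing values (MSMO1, SREBF1, SREBF2, FADS1 and the members of lists given by name only). Alternatives were other pseudocounts, filters, scalings, GC correction, separate libraries, a replicate block, voom, leaving out each library and a threshold of 0.01. Some list genes are counted but not reported here by name.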

Additional observations from a re-analysis of the deposited data

How the results depend on the processing

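Replicate numbers did not pair libraries: deviations of same-numbered libraries correlated at -0.020 to 0.020, and wild-type library 1 correlated best with knockout-labelled library 2. With the 6 libraries as separate samples and the replicate block, 4 members were higher instead of 2, as FDFT1 (0.76) and SQLE (0.62) passed; without the block FDFT1 (0.76) passed, and with voom FDFT1 (0.47). HMGCS1 lost the call with median ratio scaling (0.97) and the GC trend removed (0.77), each leaving 1 member higher, and at a threshold of 0.01 (1.31), which left 1 member higher, 4 other pathway genes and 2242 genes in all. INSIG1 turned to -0.0842 with median ratio scaling. MVD and LSS kept call and direction under all 18 alternatives, with ranges of -1.77 to -0.71 and -1.87 to -1.03. Leaving out 1 library at a time gave 0 to 2 members higher, 2 to 3 lower, 2 to 7 other pathway genes and 1663 to 5185 genes, the lowest without knockout-labelled library 3, which leaves 1 sample assumed to vary like the wild type. Log2 changes then ran from 1.12 to 1.51 for HMGCS1, -1.17 to -0.99 for FDPS and 1.29 to 1.57 for DHCR7. For poly(A) RNA 2 members passed when the log2 value also had to be 0.5 or more in size, against 4, from the authors' deposited table. The cause of each change was not tested. Low reads limit IDI1 and HMGCS1.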

Other observations

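Of 8 genes of cholesterol uptake and trafficking, none was called in the authors' deposited table (0 at an unadjusted p under 0.05), and in limma NPC1, which exports cholesterol from lysosomes, was the one called, rising from 7.71, 5.12 and 4.15 TPM to 22.6, 21.4 and 22.4 TPM (log2 change 1.83, limma adjusted p 0.0185). Of 10 genes of LXR signalling, efflux, esterification and oxysterols, 6 were tested in limma, with 2 higher, NR1H2 and SOAT1, and 1 lower, APOE. For each list of this paragraph the shares over all tested genes were 22.9% higher and 12.4% lower in limma. NR1H2, which encodes the sterol receptor LXR-beta, had a log2 change of 1.18 (limma adjusted p 0.0147) and a log2 fold change of -0.47 (adjusted p 0.0215) in the authors' deposited table, again opposite. APOE, which carries cholesterol out of glia, had 55.0, 23.6 and 35.5 TPM in the wild type and 7.65, 8.75 and 2.95 TPM under the knockout label, on 1 to 17 reads per library. CH25H, the interferon-induced gene for 25-hydroxycholesterol, was listed at 0 in all 6 rRNA-depleted libraries. In the isoprenoid branch 1 of 9 genes was higher in limma, NUS1 (log2 change 2.01, limma adjusted p 0.0221), which acts in dolichol synthesis, and none was called in the authors' deposited table (3 at an unadjusted p under 0.05, namely DHDDS, PDSS1 and COQ2).

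The letters GGAC, the core of the sequence that METTL3 methylates, occurred 1.66 times per kb in the longest transcript of INSIG1, 2.0 in HMGCS1, 2.36 in SQLE and 3.47 in FDPS, below the median of 3.55 over 11781 tested protein-coding genes. IDI1 had 3.56 per kb, DHCR7 3.75, MVD 5.10, FDFT1 5.26 and LSS 6.28, so 4 members were below that median and 5 above it. The genes whose levels over the 6 rRNA-depleted libraries were most like the members' mean standardised level were MAPKAPK5-AS1, PREP, CAMLG, DCAF15 and H4C11, with Pearson correlations of 0.989 to 0.999 over 6 libraries that share the split by label, given as a description.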
